A study of Homo sapiens with 6 samples.

Results

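The carcinoembryonic antigen family genes CEACAM1, CEACAM5, CEACAM6, CEACAM7 and CEACAM19 were followed in RNA-seq of HCT-8, a human colorectal cancer cell line. They were chosen by name, with earlier results of these data known. They are the rows of 5 genes among the 60664 gene IDs of the count table, and 3 of the 5 had enough reads to be tested. The control group (shNC, 3 libraries) was HCT-8 transfected with a control hairpin plasmid, and the other group (shPNISR, 3 libraries) received a plasmid that encodes a hairpin targeting PNISR. All cells were grown in DMEM with fetal bovine serum, and the labels do not say whether the cells were selected, cloned or grown as separate cultures, so p-values measure the spread between these libraries, which may be technical. The series asks what PNISR, a serine and arginine rich partner of a splicing protein, does to alternative splicing. Here the values are reads per gene, and isoforms were not analysed here.

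CEACAM proteins are heavily glycosylated immunoglobulin-like molecules of the cell surface that bind themselves and each other between neighbouring cells. CEACAM1 spans the membrane and, in its long-tailed form, carries inhibitory tyrosine motifs that recruit the phosphatases encoded by PTPN6 and PTPN11. CEACAM5 (the carcinoembryonic antigen measured in the blood of patients with colorectal cancer), CEACAM6 and CEACAM7 are held in the membrane by a glycosylphosphatidylinositol (GPI) anchor. In normal colon these genes are most active in mature cells of the upper crypt, and CEACAM7 is commonly lost in colorectal tumours while CEACAM5 and CEACAM6 are commonly kept or raised. CEACAM19 is a more distant transmembrane member.

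The promoters of the close paralogs are shown first because the genes of this cluster arose by duplication and their upstream sequences can still be read side by side. RefSeq (GRCh38.p14) windows matched 4 members, and each line gives the 250 bases before the start of the gene in RefSeq, 5′ to 3′ on the gene's own strand. These starts differ from those of GENCODE 29, whose gene bounds are given with each member further on: the windows of CEACAM6, CEACAM7 and CEACAM1 lie inside the GENCODE genes, whose bounds reach further upstream, and that of CEACAM5 runs across the GENCODE start. Capitals mark the E-box CACGTG, a site bound by USF1 and USF2, and a pair of GAAA letters with 2 bases between them, which interferon regulatory factors can bind.
CEACAM6, chr19:41755280-41755529, plus strand: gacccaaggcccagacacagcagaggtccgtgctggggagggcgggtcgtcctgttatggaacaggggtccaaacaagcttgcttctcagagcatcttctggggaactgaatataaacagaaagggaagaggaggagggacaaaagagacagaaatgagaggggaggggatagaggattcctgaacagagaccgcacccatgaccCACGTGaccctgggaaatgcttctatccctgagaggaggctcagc
CEACAM5, chr19:41708376-41708625, plus strand: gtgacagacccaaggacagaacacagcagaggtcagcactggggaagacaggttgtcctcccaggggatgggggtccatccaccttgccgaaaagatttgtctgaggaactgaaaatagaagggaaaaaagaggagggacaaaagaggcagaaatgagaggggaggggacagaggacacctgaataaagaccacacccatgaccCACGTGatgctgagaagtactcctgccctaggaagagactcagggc
CEACAM7, chr19:41688271-41688520, minus strand: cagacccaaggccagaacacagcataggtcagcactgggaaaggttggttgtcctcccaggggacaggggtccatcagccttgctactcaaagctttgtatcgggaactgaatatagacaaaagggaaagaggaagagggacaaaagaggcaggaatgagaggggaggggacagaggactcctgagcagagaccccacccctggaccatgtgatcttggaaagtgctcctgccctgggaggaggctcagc
CEACAM1, chr19:42528482-42528731, minus strand: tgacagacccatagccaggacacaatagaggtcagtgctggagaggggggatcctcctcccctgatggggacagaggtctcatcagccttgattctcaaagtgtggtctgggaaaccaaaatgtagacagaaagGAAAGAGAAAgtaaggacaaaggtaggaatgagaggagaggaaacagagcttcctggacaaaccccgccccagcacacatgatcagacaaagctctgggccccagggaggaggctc

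Aligned end to end, these windows were 80.5% identical between CEACAM7 and CEACAM5, 79.0% between CEACAM7 and CEACAM6 and 73.6% between CEACAM5 and CEACAM6. CEACAM1 was less like them, with 70.0% identity to CEACAM7, 67.6% to CEACAM6 and 64.4% to CEACAM5. The E-box began 45 bases before the RefSeq start of CEACAM6 and 46 bases before that of CEACAM5, and these letters are not in the windows of CEACAM1 and CEACAM7. Of 35116 RefSeq windows of the same length, 6.34% hold CACGTG. The spaced GAAA pair, searched on both strands, occurred once, in CEACAM1, and 3.02% of all windows hold them. A GC box, GGGCGG on either strand, was in the windows of CEACAM6 and CEACAM1, as in 42.6% of all windows. A match describes the letters only, and no binding was measured.

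The label of the cells was checked against markers, and library depth and spread against the groups. PNISR fell from 56.1 ± 6.32 to 22.3 ± 4.74 CPM (CPM, here and below, is the count scaled to a common library size with TMM factors; mean ± SD, 3 libraries each; log2 fold change -1.33 ± 0.15 SE, edgeR adjusted p = 8.73e-05). Epithelial markers were abundant, with KRT8 at 2239 CPM and EPCAM at 119 CPM in shNC, while KRT20 (0.123 CPM in shNC, 0.346 in shPNISR) and GPA33 (0.198 and 0.143), also colorectal markers, were at the limit of detection. The 10 epithelial and colorectal markers summed to 4352 to 4962 CPM in shNC and 4855 to 6092 CPM in shPNISR. Of the 8 that were tested 2 rose, where 2.3% of all tested genes were called higher at an adjusted p of 0.05. Granulocytes also make several CEACAM proteins. Of 7 granulocyte markers, CSF3R, FCGR3B, MPO and ELANE had 0 reads in all 6 libraries, as did the leukocyte marker PTPRC. The 1 granulocyte marker with enough reads to be tested had a log2 fold change of 0.985 and did not pass (edgeR adjusted p = 0.238). The 7 granulocyte markers summed to 0.599 to 1.23 CPM in shNC beside 1.42 to 1.67 CPM in shPNISR, the 7 other leukocyte markers to 4.42 to 5.66 beside 5.45 to 6.88 CPM, fibroblast markers to 16.2 to 24.8 beside 24.6 to 29 CPM and endothelial markers to 0.718 to 1.49 beside 1.41 to 1.66 CPM. Against the sum of its list, LYZ, which encodes lysozyme, fell from 1.21 ± 0.287 to 0.287 ± 0.217 CPM (log2 fold change -2.05 ± 0.51 SE, edgeR adjusted p = 0.0337), the only gene called among those of these 4 lists that were tested, and it was named after its values were seen. Any part of these in the values of the CEACAM genes was not tested. The libraries held 15049485 to 17977803 counted reads. The shNC 2 library stood apart: on the first principal component (44.8% of the variance) it scored 0.787, beside -35.2 and -31.2 for the other shNC libraries and 16.9 to 24.6 for shPNISR. The fold changes of the tested members are therefore also given without it.

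CEACAM6 and CEACAM1 rose with shPNISR, CEACAM19 did not pass the test, and CEACAM5 and CEACAM7 had too few reads to test. Of all 16102 tested genes, 3.14% were called at an adjusted p of 0.05 in either direction, 2.3% higher and 0.832% lower. The libraries of the groups did not overlap in 21.1% of tested genes in either direction, in 11.5% with shPNISR higher, as was the case for CEACAM6 and CEACAM1, and in 9.58% with shPNISR lower. HCT-8 is sequenced in bulk here, so a change in the number of cells expressing a gene and a change in RNA per cell cannot be told apart.

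**Figure D1:**
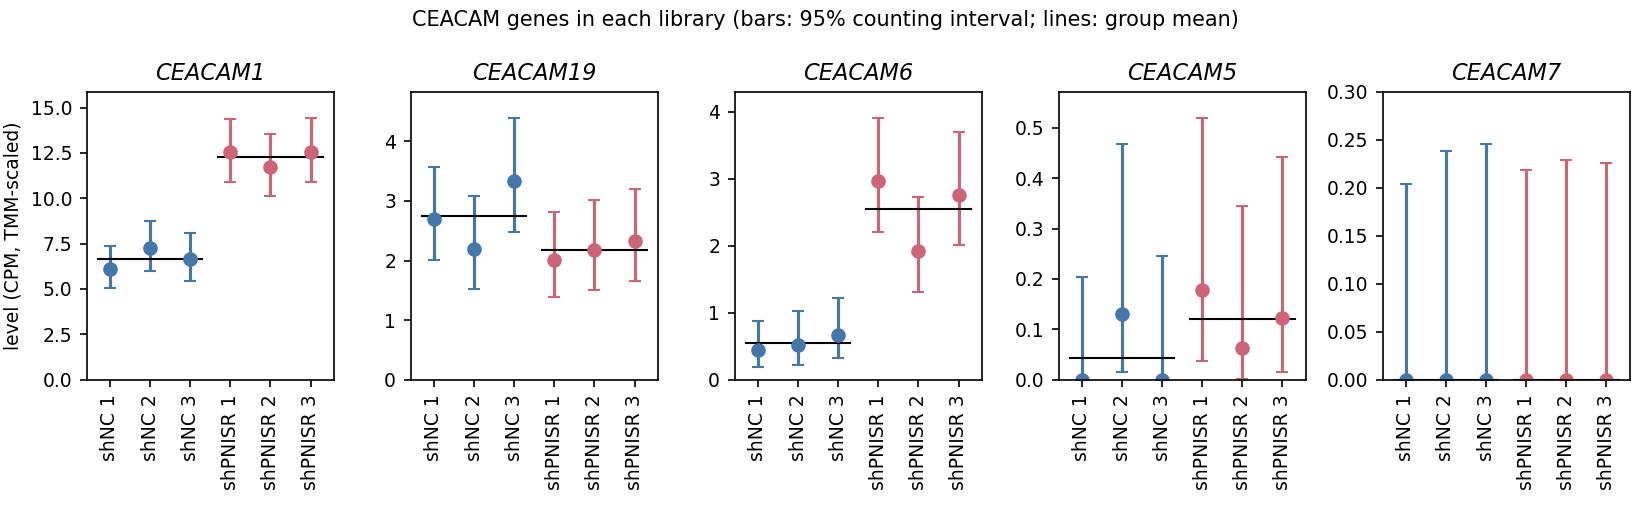
Level of each CEACAM gene (vertical axis, CPM, a separate scale for each gene) in the 3 shNC libraries (blue) and the 3 shPNISR libraries (red), with the exact 95% counting interval of each library as a bar and the group mean as a line. CEACAM1 and CEACAM6 lie above all shNC libraries in each shPNISR library, CEACAM19 overlaps between the groups, CEACAM5 holds at most 3 reads in a library, and CEACAM7 holds none.

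CEACAM6, a GPI-anchored adhesion molecule that is often raised in colorectal tumours and is linked to survival of detached cells, had the larger response. Control libraries 1 to 3 held 8, 8 and 10 reads, and those with the PNISR hairpin held 50, 31 and 45. In CPM the controls read 0.442, 0.518 and 0.666 and the shPNISR libraries 2.96, 1.92 and 2.76. Every shPNISR library was above every shNC library, the closest pair differing 2.89-fold. The highest upper end of a counting interval in shNC was 1.22 CPM (shNC 3) and the lowest lower end in shPNISR was 1.31 CPM (shPNISR 2), so the intervals of the groups did not meet.

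The mean level of CEACAM6 went from 0.542 ± 0.114 to 2.55 ± 0.551 CPM (SD, n = 3 each). The log2 fold change was 2.23 ± 0.35 (SE), or 4.69-fold, by edgeR's quasi-likelihood test with Benjamini-Hochberg adjustment (adjusted p = 0.00151). By size of increase it stood at place 24 of the 16102 tested genes. Without shNC 2 the log2 fold change was 2.20 (adjusted p = 0.000921). The low-count filter asked for about 0.621 CPM in 3 libraries, which CEACAM6 reached in 3 shPNISR libraries and 1 shNC library, so it entered the test through the group where it was high. A filter on a mean of at least 1 CPM over all 6 libraries kept it through the same group. With no low-count filter the log2 fold change was 2.22 (edgeR adjusted p = 2.07e-06). CEACAM6 (ENSG00000086548) is a plus-strand gene of chromosome 19 at 41750977 to 41772208 in GRCh38.

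CEACAM1, the transmembrane member with the inhibitory tail, was the most abundant of the 5. Control libraries 1 to 3 held 111, 112 and 100 reads, and those with the PNISR hairpin held 212, 189 and 205. In CPM the controls read 6.13, 7.25 and 6.66 and the shPNISR libraries 12.6, 11.7 and 12.6. The groups did not overlap, and within a group the libraries lay close together, with a coefficient of variation of 8.41% in shNC and 3.95% in shPNISR. The mean level went from 6.68 ± 0.562 to 12.3 ± 0.485 CPM (SD, n = 3 each), a log2 fold change of 0.88 ± 0.17 (SE), or 1.84-fold (edgeR adjusted p = 0.00721). Without shNC 2 the log2 fold change was 0.94 (adjusted p = 0.00132). The call held at the edge without shNC 1 (0.82, adjusted p = 0.0496) and without shPNISR 1 (0.87, adjusted p = 0.0483). CEACAM1 (ENSG00000079385) is a minus-strand gene of chromosome 19, GRCh38, at 42507304 to 42561234, and the counts do not separate its long-tailed and short-tailed forms.

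CEACAM19, the distant transmembrane member, was present at a low level and did not pass. Control libraries 1 to 3 held 49, 34 and 50 reads, and those with the PNISR hairpin held 34, 35 and 38. In CPM the controls read 2.70, 2.20 and 3.33 and the shPNISR libraries 2.01, 2.17 and 2.33. The shNC 2 library lay inside the range of the shPNISR libraries and the other shNC libraries lay above it. The mean level was 2.75 ± 0.565 CPM in shNC and 2.17 ± 0.158 CPM in shPNISR (SD, n = 3 each), and the log2 fold change was -0.34 ± 0.27 (SE; edgeR adjusted p = 0.543). Without shNC 2 it was -0.47 (adjusted p = 0.274) and without shNC 3 it was -0.18 (adjusted p = 0.863). CEACAM19 (ENSG00000186567) is a plus-strand gene of chromosome 19 at 44662278 to 44684359.

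CEACAM5, which encodes the carcinoembryonic antigen itself, was close to the limit of detection. Control libraries 1 to 3 held 0, 2 and 0 reads, those with the PNISR hairpin held 3, 1 and 2, and the gene was not tested. The summed reads were 2 and 6, a ratio of 2.95 after scaling with an exact 95% interval of 0.528 to 29.9 that covers counting error only, so a change was not detectable at this depth. With no low-count filter its log2 fold change was 1.39 ± 1.37 (SE; edgeR adjusted p = 0.677). CEACAM5 (ENSG00000105388) is a plus-strand gene of chromosome 19 at 41708585 to 41729798.

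CEACAM7, the GPI-anchored member that colorectal tumours commonly lose, had 0 reads in every library. A count of 0 allows up to 3 reads, which is 0.166 to 0.200 CPM in a library and 0.0306 CPM over all 6. CEACAM7 (ENSG00000007306) lies on the minus strand at 41673307 to 41706976, with a gap of 1.61 kb to CEACAM5 and, beyond it, a gap of 21.2 kb from CEACAM5 to CEACAM6. So among the members, the one that rose most lies next to a gene at the detection limit, with a gene with no reads beyond that.

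Per length, the order of the levels changed between the groups. In shNC, CEACAM1 stood at 1.21 ± 0.102 CPM per kilobase of exon, CEACAM19 at 0.528 ± 0.109 and CEACAM6 at 0.178 ± 0.0374 (mean ± SD, n = 3). In shPNISR, CEACAM1 stood at 2.22 ± 0.0879 CPM per kilobase, CEACAM6 at 0.835 ± 0.180 and CEACAM19 at 0.417 ± 0.0305. In neither group did the library ranges of neighbours in this order overlap: CEACAM6 ran from 0.145 to 0.218 and CEACAM19 from 0.423 to 0.640 in shNC, while CEACAM6 ran from 0.630 to 0.970 and CEACAM19 from 0.387 to 0.448 in shPNISR. CEACAM5 was at 0.0129 ± 0.0223 CPM per kilobase in shNC and 0.0360 ± 0.0173 in shPNISR. Exon length here is the union of all annotated exons, and which isoforms the cells used was not analysed here. Without division by length the shPNISR ranges overlapped, at 1.92 to 2.96 CPM for CEACAM6 and 2.01 to 2.33 CPM for CEACAM19. In shPNISR 2, CEACAM6 held 31 reads and CEACAM19 held 35.

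Whether the members differed among themselves in their response was asked with the log2 ratio of their CPM within each library. The ratio of CEACAM6 to CEACAM1 was -3.47, -3.53 and -3.10 in the control libraries, and -2.04, -2.53 and -2.14 with the PNISR hairpin, a shift of 1.13. That of CEACAM6 to CEACAM19 shifted by 2.30, from a mean of -2.10 to 0.20, and that of CEACAM1 to CEACAM19 by 1.18, from 1.26 to 2.44. For all 3 pairs the libraries of the groups did not overlap, so CEACAM6 gained on CEACAM1 and both gained on CEACAM19 in every shPNISR library. The exact permutation test, two-sided, gave p = 0.1 for each pair (0.1 after Benjamini-Hochberg adjustment over the 3 pairs), which is the smallest p that 3 against 3 libraries allow, so the differences between members could not reach 0.05.

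**Figure D2:**
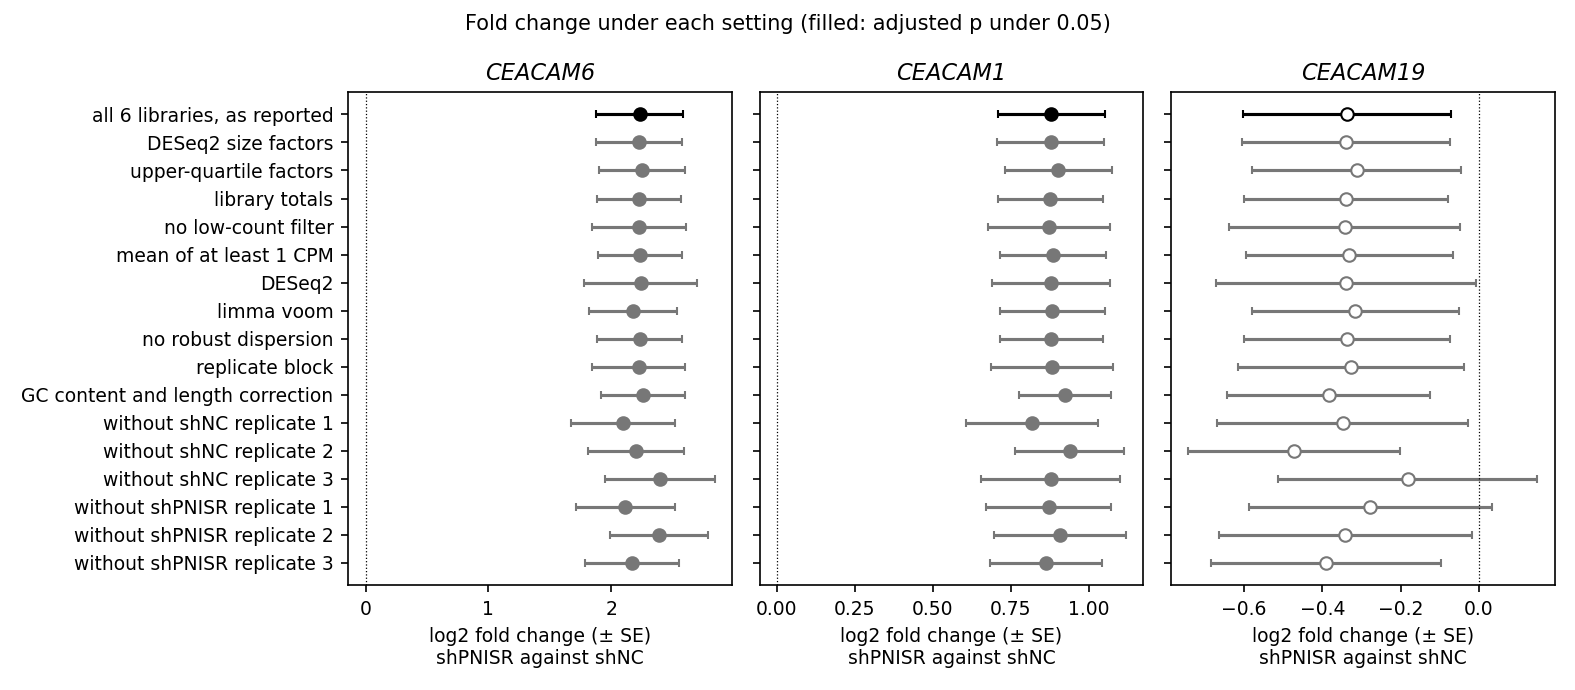
Log2 fold change of CEACAM6, CEACAM1 and CEACAM19 with its SE (horizontal axis, a separate scale for each gene) for all 6 libraries and under each of the 16 alternatives (rows). Filled points passed an adjusted p of 0.05: all of those of CEACAM6 (2.09 to 2.40) and CEACAM1 (0.82 to 0.94), and none of those of CEACAM19 (-0.47 to -0.18).

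Close paralogs can share reads, so the sequence that each member shares with other genes was counted in GENCODE 29 transcripts. Of all stretches of 100 bases in its transcripts, CEACAM6 shared 1.73%, CEACAM1 0.469% and CEACAM19 0.398% exactly with another gene, and CEACAM7 shared none. Stretches of 50 bases were shared with another CEACAM or PSG gene for 4.06% of CEACAM6, 2.64% of CEACAM5 and 2.62% of CEACAM1, and for none of CEACAM19 and CEACAM7. CEACAM5 shared 12.6% of its stretches of 100 bases, all with a readthrough gene (ENSG00000267881) that covers 16.2% of its exon bases and 5.64% of those of CEACAM6 and that had 0 reads in all libraries. Reads on those exons may have been dropped or shared, since no counter is named in the labels.

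Overlapping genes on the other strand or next door were read beside the members. LIPE-AS1, an antisense gene, covers 185 bases (3.35%) of CEACAM1 exons, held 62, 95 and 58 reads in the controls beside 70, 106 and 113 with the PNISR hairpin, and did not pass (0.40, edgeR adjusted p = 0.445). PVR, an adhesion and poliovirus receptor gene that shares 121 bases (2.33%) with CEACAM19 exons, had 898 to 1350 reads in shNC and 966 to 1111 in shPNISR (-0.08, edgeR adjusted p = 0.788). Without a known strand setting, reads of LIPE-AS1 and CEACAM1 cannot be told apart where they overlap, and those of PVR and CEACAM19, which lie on the same strand, cannot be told apart by strand at all. Their part in the values of CEACAM1 and CEACAM19 was not tested.

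The other genes of the family were nearly silent. Of 19 further CEACAM and PSG genes (the latter encode pregnancy-specific glycoproteins), 11 had 0 reads in all libraries and none passed the low-count filter. The highest count in a library was 7, for PSG4 in shPNISR 3. CEACAM8, a granulocyte gene, held 0, 1 and 2 reads in the controls beside 2, 0 and 2 with the PNISR hairpin. Together the 19 genes had 13 reads in shNC and 26 in shPNISR, so a response of these genes was not detectable at this depth.

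Genes between the outermost members were used to see whether the whole region moved. Between CEACAM7 and CEACAM19 (chromosome 19, 41673307 to 44684359) lie 137 other annotated genes of the table, of which 54 were tested. PLAUR, the urokinase receptor, rose (1.00 ± 0.22 SE, edgeR adjusted p = 0.0309) and the other 53 did not pass, so 1.85% were called beside the 3.14% of all tested genes. PLAUR lost its call without any 1 of the shPNISR libraries. Without shNC 2, 5 of these genes rose and 2 fell, while the calls among all tested genes went from 505 to 2030. The median log2 fold change of the 54 genes was 0.09, beside -0.01 for all tested genes, with 33 above 0 and 21 below.

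**Figure D3:**
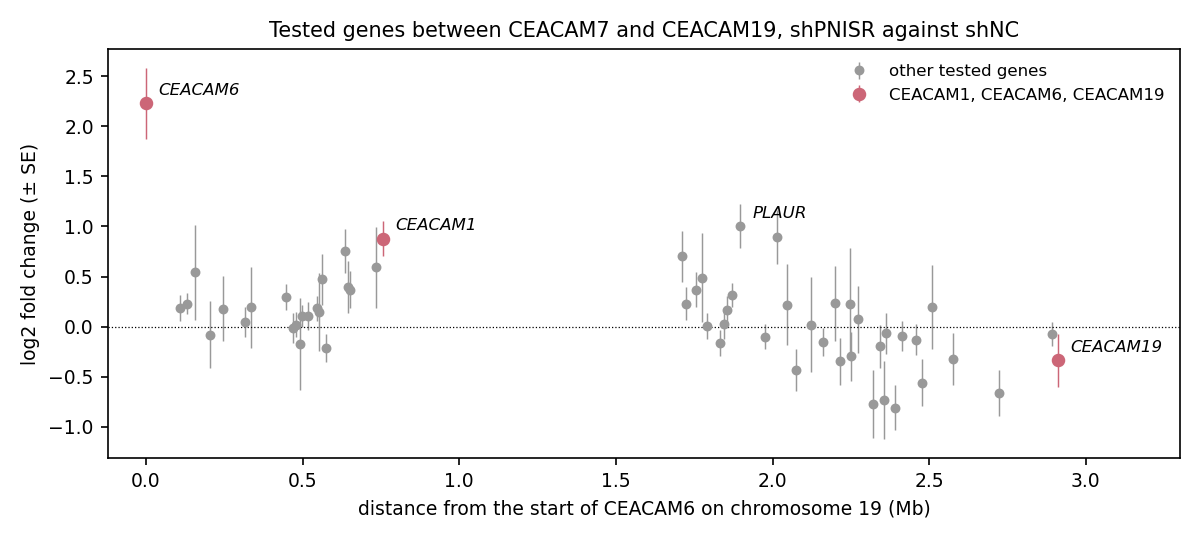
Log2 fold change with its SE (vertical axis) of the 54 tested neighbours (grey) and the 3 tested members (red) against the distance of their start from that of CEACAM6 in megabases. CEACAM6 at 2.23 lies above all other genes of the region. CEACAM1 at 0.88 is close to PLAUR at 1.00 in height but not in position, and CEACAM19 at -0.34 lies beside PVR at -0.08 in position.

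Genes that work with CEACAM proteins were read beside the members. Of 19 tested genes of the list of CEACAM partners and signalling, 3 rose, none fell and 16 did not pass, where 2.3% of all tested genes were called higher and 0.832% lower. This list and those below were chosen with earlier results of these data known, so their counts are descriptions and no test of the lists. S100A10 rose from 273 ± 16.2 to 392 ± 60.3 CPM (0.52 ± 0.12 on the log2 scale, edgeR adjusted p = 0.0228) and ANXA2 from 530 ± 14.6 to 728 ± 85.3 CPM (0.46 ± 0.12, edgeR adjusted p = 0.0365). Their products form the annexin complex reported to bind the CEACAM1 tail. PTPN6, the phosphatase recruited by the CEACAM1 tail, rose from 14.7 ± 1.54 to 21.7 ± 2.18 CPM (0.56 ± 0.15, edgeR adjusted p = 0.0463). None of these 3 calls held without shNC 1, shPNISR 1 or shPNISR 2, ANXA2 and PTPN6 also lost theirs without shNC 3, and PTPN6 without shPNISR 3. PTPN6 also lost its call with library totals, without robust dispersions and with the correction for GC content and length. The list's median was 0.13. Without shNC 2, when 2030 genes of the whole table were called, 4 genes of the list rose.

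Regulators of the CEACAM1 transcript were read next. Among 6 genes linked to inclusion of the CEACAM1 tail exon none was called by edgeR, DESeq2 or limma voom, and none had an unadjusted p under 0.05, which 17.8% of all tested genes had. HNRNPA1 measured 2101 ± 115 CPM in the controls beside 2030 ± 178 with the PNISR hairpin, and HNRNPM 626 ± 101 beside 610 ± 49.8 CPM; both bind RNA near that exon. Of 16 transcription factors with reported roles at CEACAM promoters, CDX1, a factor of intestinal identity, fell from 7.04 ± 0.545 to 3.39 ± 0.396 CPM (-1.06 ± 0.21, edgeR adjusted p = 0.00798) and 15 did not pass. Of all tested genes, 0.832% were called lower. The call of CDX1 ended without shPNISR 1 or shPNISR 3, and 2 factors fell without shNC 2, when 2030 genes of the whole table were called. USF1 and USF2, named here for the E-box although their values had been seen, did not pass: USF1 measured 60.8 ± 6.0 CPM in the controls beside 53.5 ± 4.71 with the PNISR hairpin, and USF2 110.4 ± 5.82 beside 117 ± 6.90 CPM. The median of this list was 0.03.

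CEACAM6 reaches the surface on a GPI anchor, so the makers of the anchor and other proteins that carry it were compared. None of 27 tested genes of GPI anchor synthesis and attachment was called with all 6 libraries and the low-count filter by edgeR or limma voom. Of the 27, 4 had an unadjusted edgeR p under 0.05, beside 17.8% of all tested genes, and the median was 0.00. By DESeq2 (706 genes called in all) 1 was called lower, as by edgeR with no low-count filter (996 in all). Without shNC 2, when 2030 genes of the whole table were called, 1 rose and 3 fell. Without shNC 3 (557 called in all) or shPNISR 3 (250 called in all), 1 fell. PIGS measured 104 ± 12.5 CPM in the controls beside 117 ± 4.39 with the PNISR hairpin, and PIGT 87.2 ± 4.36 beside 100.2 ± 5.80 CPM; both encode subunits of the enzyme that attaches the anchor. Of 31 tested genes for other GPI-anchored surface proteins, 7 rose, none fell and 24 did not pass. By an unadjusted edgeR p under 0.05, 15 of the 31 stood out, 14 higher and 1 lower, beside 17.8% of all tested genes. Of all tested genes, 2.3% were called higher and 0.832% lower. This list's median was 0.28, beside -0.01 for all tested genes. Without shNC 2 there were 13 higher, when 2030 genes of the whole table were called, and without shPNISR 1 there were 4, when 163 were called.

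The 4 of the other GPI-anchored genes with the smallest adjusted p act in iron binding, nucleotide and phosphate release and folate uptake at the cell surface. MELTF, an iron-binding transferrin homologue, rose from 32.8 ± 3.75 to 62.2 ± 3.84 CPM (0.92 ± 0.12, edgeR adjusted p = 0.00039), and NT5E, which makes adenosine from AMP, from 10.2 ± 1.53 to 21.5 ± 0.575 CPM (1.08 ± 0.16, edgeR adjusted p = 0.000694). ALPI, the intestinal alkaline phosphatase, rose from 1.77 ± 0.556 to 5.30 ± 0.744 CPM (1.59 ± 0.26), and FOLR1, a folate receptor, from 14.6 ± 3.97 to 29.6 ± 3.43 CPM (1.02 ± 0.17). These 4 genes were picked by their small adjusted p, so what follows is no separate support for them. In them the libraries of the groups did not overlap, as in 11.5% of all tested genes with shPNISR higher. No alternative ended their calls, while PLAUR, also called in this list, lost its call without any 1 of the shPNISR libraries. Each of the 4 rose less on the log2 scale than CEACAM6 at 2.23 ± 0.35, a difference that was not tested.

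Of 24 epithelial adhesion and junction genes, 3 rose, none fell and 21 did not pass, with a median of 0.22. An unadjusted edgeR p under 0.05 was found in 12 of them, 10 higher and 2 lower, beside 17.8% of all tested genes. The shares of all tested genes called were 2.3% higher and 0.832% lower. CDH17, which joins intestinal cells to each other, rose from 17.6 ± 2.97 to 44.1 ± 2.26 CPM (1.32 ± 0.14), L1CAM, a neural adhesion molecule of the same immunoglobulin superfamily as CEACAM proteins, from 4.91 ± 2.24 to 13.0 ± 0.882 CPM (1.41 ± 0.24), and CLDN7, a claudin, from 57.1 ± 5.83 to 78.1 ± 7.04 CPM (0.45 ± 0.12, edgeR adjusted p = 0.0457). The call of CLDN7 ended without any 1 library but shNC 2, with library totals (adjusted p = 0.0575), without robust dispersions (0.0561) and with the correction for GC content and length (0.0890). Without shNC 2, when 2030 genes of the whole table were called, 8 of these genes rose and 1 fell. DESeq2 (706 genes called in all) gave 5 higher and 1 lower, and limma voom (503 in all) gave 5 higher. With no low-count filter (996 in all) 6 were higher and 1 lower, and without shNC 3 (557 in all) 4 and 1. Library totals (346 in all) gave 2 higher, as did the GC content and length correction (456 in all). Leaving out shNC 1 (199 in all) or any 1 shPNISR library (163 to 276 in all) also gave 2 higher.

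**Figure D4:**
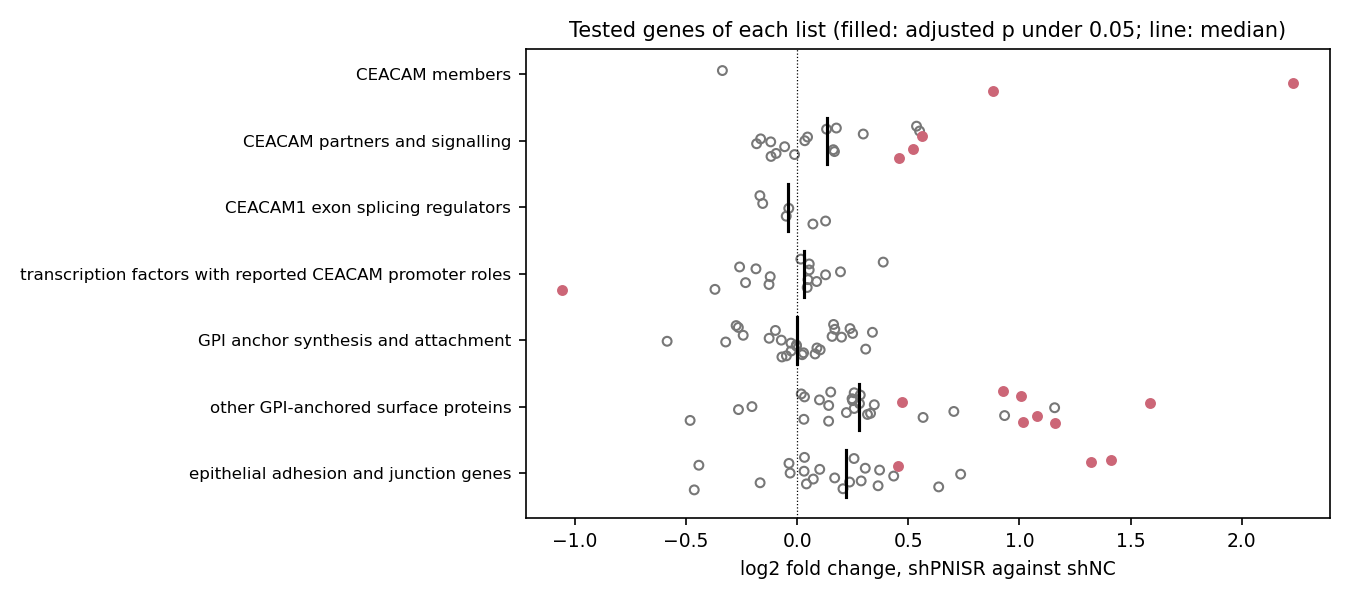
Log2 fold change (horizontal axis) of each tested gene in the lists read beside the CEACAM genes, filled where the adjusted p was under 0.05, with the median of each list other than the CEACAM genes as a line. CEACAM6 at 2.23 lies farthest to the right, 7 genes for other GPI-anchored proteins and 3 adhesion genes are filled above 0, CDX1 at -1.06 is filled below 0, and the makers of the GPI anchor centre on 0.00.

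For each tested member the 3 genes nearest in pattern were found as the smallest root mean square difference of centred log2 CPM over the 6 libraries, a description that carries no test. For CEACAM6 they were BMP2, a secreted growth factor (0.31), DUSP13, a phosphatase gene (0.37), and DDC, which encodes a decarboxylase of amine synthesis (0.39), among 11595 genes with a mean of at least 5 CPM. BMP2 went from 3.71 ± 0.336 to 12.2 ± 0.242 CPM. For CEACAM1 they were IL33, an epithelial cytokine (0.06), ELMO3 (0.07) and MELTF (0.07), and IL33 went from 10.1 ± 1.40 to 19.2 ± 1.27 CPM. For CEACAM19 they were BROX (0.02), RBM39, which encodes a splicing factor (0.04), and TIFA (0.04), none of which passed. The differences from CEACAM6 were larger than those from the other members, and CEACAM6 had fewer reads than they did.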

How the data were processed

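RNA-seq of HCT-8 cells gave 6 libraries, 3 with a control hairpin plasmid (shNC) and 3 with a hairpin plasmid against PNISR (shPNISR). The deposited table holds raw read counts per Ensembl gene ID for 60664 IDs. Per the submitters' processing notes the reads were handled with HISAT2 2.0.4 on GRCh38; counter, annotation release, strand setting and read length were not given in the sources used here. Total counts ran from 15049485 to 17977803 per library, and no pair of libraries within a group agreed within sampling noise. Symbols came from a table of Ensembl IDs and matched all 5 CEACAM genes. Positions, exon length (the union of all exons) and transcripts came from GENCODE 29 on GRCh38, and promoter windows from RefSeq on GRCh38.p14.

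Genes were filtered with filterByExpr (minimum count 10, minimum total 15), which left 16102. After TMM scaling, edgeR 4.0.16 (R 4.3.3) gave two-sided quasi-likelihood tests with robust dispersions, and p-values were adjusted by Benjamini-Hochberg over all tested genes, with calls at 0.05. SE was taken from the fold change and test statistic. The test was checked on simulated counts. Pairs of CEACAM genes were compared by an exact permutation test of log2 CPM ratios (prior count 2). Counting intervals are exact Poisson at 95% and cover counting error only. Alternatives were DESeq2 1.42.0, limma voom 3.58.1, other scalings and filters, the replicate number as a term, dispersions without the robust option, a loess correction for GC content and length (span 0.4), a prior count of 0.5 for the ratios, and leaving out each library.

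The members and lists were chosen with earlier results of these data known. Named genes were PNISR, the 5 members, from each list up to 4 called genes with the smallest adjusted p or the 2 of highest CPM where none was called, called genes between the outermost members (up to 6), and for each tested member the 3 genes nearest to it in pattern among those with a mean of at least 5 CPM. Others are said to be chosen after their values were seen. Figures were drawn with matplotlib 3.10.9.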

Additional observations from a re-analysis of the deposited data

How the results depend on the processing

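CEACAM6 and CEACAM1 were called higher, and CEACAM19 was not called, under all 16 alternatives, with CEACAM6 between 2.09 and 2.40, CEACAM1 between 0.82 and 0.94 and CEACAM19 between -0.47 and -0.18 on the log2 scale. Adjusted p ran from 2.07e-06 to 0.0233 for CEACAM6, from 0.000396 to 0.0496 for CEACAM1 and from 0.274 to 0.863 for CEACAM19. With a prior count of 0.5 the ratio of CEACAM6 to CEACAM1 shifted by 1.29, that of CEACAM1 to CEACAM19 by 1.19 and that of CEACAM6 to CEACAM19 by 2.48. Each had the same exact permutation p = 0.1. Same-numbered libraries deviated with r of 0.12, -0.08 and -0.15. The labels state no pairing, and the libraries were not treated as paired. With the replicate block CEACAM6 was at 2.22, CEACAM1 at 0.88 and CEACAM19 at -0.33, and 508 genes were called in all, beside 505 without it. Under the block ANXA2 (adjusted p = 0.0528) and PTPN6 (0.0669) were not called, which left 1 of 3 calls among the CEACAM partners, nor was CLDN7 (0.0603), while 4 adhesion genes were called higher, beside 3 without it. The number of genes called was 996 with no low-count filter and ran from 163 (without shPNISR 1) to 2030 (without shNC 2) when 1 library was left out; the cause was not tested. Neither splicing regulator named was called under any alternative, but both changed sign: HNRNPA1 was at 0.0369 with the GC content and length correction and ran from -0.120 to 0.0103 when 1 library was left out (above 0 without shPNISR 3), and HNRNPM ran from -0.168 to 0.0458 (above 0 without shNC 1, shNC 3 or shPNISR 3). CEACAM5 and CEACAM7 have no value in these fits except CEACAM5 with no filter. Depth limits CEACAM6 in shNC to 8 to 10 reads a library.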
